A study of Mus musculus with 3 samples.

Results

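The genes described here encode the machinery that copies DNA: origin licensing factors, MCM proteins, helicase activators, DNA polymerases and primase, the sliding clamp and its loader, the single-strand binding protein, enzymes of nucleotide supply and topoisomerases. They were taken by a pattern of gene names in the array's own annotation, which reads no measured value but was written with earlier results of these data known. The pattern found 51 genes with 85 probes among 27670 gene symbols with 41174 probes. Of these, 39 genes with 48 probes were bright enough to be tested, against 7254 genes with 8590 probes over the whole array. The pattern also took Mcm3ap, Poldip2 and Poldip3, which are named after a replication protein and are not subunits of these complexes, and only Poldip2 of them was tested.

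The arrays measured RNA of pooled mouse four-cell embryos. In the HP group, oocytes were put under high hydrostatic pressure of 20 MPa for 60 min at 37 °C before fertilisation, and 3 pools held 44, 30 and 37 embryos. In the control group, oocytes went through the same handling without pressure, and 3 pools held 36, 33 and 24 embryos. Embryos of both groups came from sperm injection into the oocyte per the sample labels, while the series title speaks of fertilisation in vitro, and both were then cultured. The strain, genotype and age of the mice are not given in the sources used here. Each array held the HP pool in Cy5 and the control pool of the same replicate number in Cy3, after amplification from 240 pg of RNA, so that an effect of pressure and an effect of the dye cannot be told apart.

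Replication starts at origins that are bound by the origin recognition complex (ORC). Cdc6 and Cdt1 then load the ring-shaped MCM helicase there, and geminin (Gmnn) blocks Cdt1 so that an origin is not licensed again in the same cycle. Kinases, Cdc45 and the GINS complex turn the loaded ring into an active helicase. Polymerase alpha with primase starts each strand, and polymerases delta and epsilon extend it while held to DNA by the clamp PCNA, which replication factor C (RFC) loads. The cleavage divisions of the early embryo alternate rounds of DNA synthesis and mitosis with little growth, and they begin on proteins and mRNAs stored in the oocyte while the embryo's own genes switch on.

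Between 17.5% and 19.9% of non-control spots in the HP channel passed the scanner software's call of well above background, and between 18.5% and 23.2% in the control channel. Of 11 markers of oocytes and cleavage embryos, 7 were above background in each HP pool and 6 to 8 in the control pools. Among them Zp3, Gdf9, Bmp15, Dppa3, Oosp1, Btg4 and Zfp42 were detected on at least 2 arrays, and Zp2, Nlrp5, Zar1 and Pou5f1 were not. Of 12 markers of cumulus and granulosa cells, 0 to 1 were above background in the HP pools and 0 to 1 in the control pools. Of 5 sperm markers, 0 to 1 were above background in the HP pools and 1 to 2 in the control pools, and Prm1 alone was detected on at least 2 arrays. Across the 39 replication genes, which share each array, Pearson's r between log2 ratios was 0.63 for replicates 2 and 3, and 0.29 for either of them with replicate 1. The corresponding values across 7245 genes were 0.65, 0.23 (replicate 2 with 1) and 0.22 (replicate 3 with 1). The HP pools of replicates 2 and 3 stood closest together, with an SD of the difference between their log2 signals of 0.232, against 0.459 to 0.545 for the other pairs of HP pools and 0.462 to 0.521 for pairs of control pools. The results are therefore given also with replicates 2 and 3 counted as 1. No label says that pools of different number came from separate mice, so a p-value here reflects the spread among these arrays, which may be technical.

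No replication gene passed the test after adjustment: limma with Benjamini-Hochberg adjustment over all 7254 genes called 0 genes on the array (0%), and the lowest adjusted p of a replication gene was 0.177. Median centring of the arrays in place of loess ended this, with 1094 genes called, 12 of them replication genes and 1090 of them lower in HP. Of the 39 tested, 24 had a mean log2 ratio of HP over control below 0 and 15 above it (38.5%). Over all genes tested, 3744 were below 0 and 3510 above it (48.4%). Among the 34 replication genes above background in both channels, 22 were below 0 and 12 above it. The 7 replication genes with an unadjusted p under 0.05 in limma were all lower in HP: Pold3, Rfc4, Mcm7, Top1, Mcm8, Prim2 and Rfc2. That is 17.9% of the tested replication genes, while 18.4% of all genes reached this p. By direction, 0 replication genes were higher at this p (0%, beside 7.21% of all genes) and 7 were lower (17.9%, beside 11.2% of all genes). The share over both directions together was close to that over the whole array in this setting, while the shares by direction were further apart. A difference in these shares was not tested. Without replicate 1 the number was 11, with 2 higher and 9 lower in HP, which is 28.2% beside 24.7% of all genes. With replicates 2 and 3 counted as 1 it was 7, with 1 higher and 6 lower, or 17.9% beside 12.1% of all genes. Rfc2 stands among the 7 by a narrow choice between its probes, which is described with the probes. In pooled embryos, fewer cells with a transcript and less of it per cell cannot be told apart.

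The median log2 ratio over the 39 genes was −0.21, beside −0.01 over all genes tested, and it was −0.07, −0.16 and −0.19 on replicates 1, 2 and 3. The means of single genes ran from −1.35 (Pold3) to 0.42 (Rfc5). The log2 ratio kept its sign on all 3 arrays for 21 replication genes, 16 of them lower in HP (25.3% of all genes were lower on every array) and 5 higher (23% of all genes). Cdc7 and Rpa1 among the 16, and Pole2 and Poldip2 among the 5, passed the brightness filter through 1 channel alone, which favours that sign. Of the 34 replication genes above background in both channels, 17 kept 1 sign (50%, beside 48.3% of all genes tested), 14 lower in HP and 3 higher. For 13 genes no HP pool overlapped a control pool in normalised signal (26.2% of all genes). Of these, 10 were lower in HP, namely Pold3, Rfc4, Mcm7, Top1, Mcm8, Prim2, Rfc2, Mcm10, Cdt1 and Rpa3. The other 3 were higher in HP, namely Gmnn, Pcna and Poldip2. Of these Poldip2 was dim, with normalised log2 means of 6.50 in HP and 6.40 in control, and its filter route favours a value above 0. How a gene passed the brightness filter differed: 34 were above background in both channels, 3 through HP alone (Pold1, Pole2 and Poldip2) and 2 through the control alone (Cdc7 and Rpa1).

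**Figure D1:**
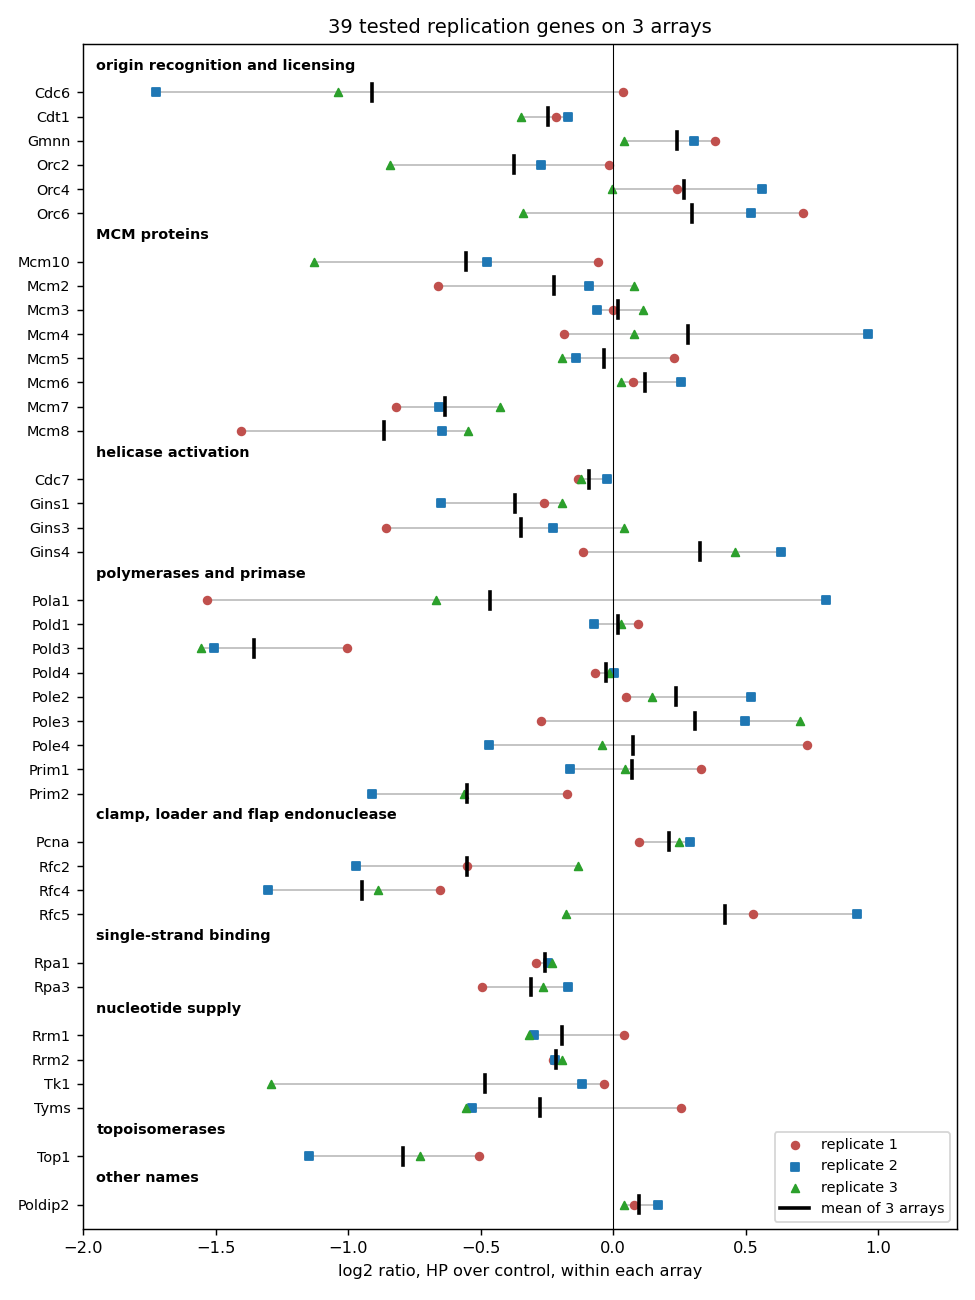
Log2 ratio of HP over control (horizontal axis) for the 39 tested replication genes, grouped by complex; coloured symbols are the 3 arrays and black bars their mean. The 7 genes of unadjusted p under 0.05 lie left of 0 on every array, while ORC, MCM and polymerase genes are found on both sides of 0; under median centring 13 of the genes drawn right of 0 move to its left.

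Among the licensing factors the values went both ways. Of 9 on the array 6 were tested, 3 with a mean above 0 and 3 below, with a median of −0.00 and 0 at an unadjusted p under 0.05. These counts depend on the probe that stood for Orc4, which was above 0. The other tested Orc4 probe passed the brightness filter through the control alone and averaged −0.66 (unadjusted p = 0.0226 in limma over probes). Cdt1, which loads the MCM ring, had log2 signals of 11.14, 11.19 and 11.15 in HP pools 1, 2 and 3, and of 11.35, 11.36 and 11.50 in the control pools. All 3 HP pools lay below all control pools, by a small amount. Its log2 ratio was −0.24 ± 0.11 (moderated SE, n = 3 arrays; limma adjusted p = 0.32). Gmnn, the inhibitor of Cdt1, had 10.35, 10.44 and 10.36 in HP pools, against 9.97, 10.13 and 10.32 in control pools. Here all HP pools lay above the control pools, with a log2 ratio on replicate 3 of only 0.04. The ratio of Gmnn was 0.24 ± 0.13 (adjusted p = 0.363), and under median centring of the arrays in place of loess it was −0.70.

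Cdc6, the ATPase that works with ORC to load the helicase, had log2 signals of 8.23, 7.25 and 7.54 in HP pools and of 8.19, 8.98 and 8.58 in control pools. The groups overlapped, because on replicate 1 both pools were nearly equal. Its mean was −0.91 ± 0.37 (adjusted p = 0.304). Orc2, a core ORC subunit, was at −0.01, −0.27 and −0.84 on replicates 1, 2 and 3, with a mean of −0.38 ± 0.20 (adjusted p = 0.371) and overlapping pools. Orc6 was at 0.72, 0.52 and −0.34 and changed sign between arrays. Orc1, Orc3 and Orc5 were not bright enough to be tested.

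Among the MCM proteins, 1 subunit of the replicative ring and 1 relative outside it reached an unadjusted p under 0.05, both lower in HP. All 8 on the array were tested, 5 with a mean below 0 and 3 above, with a median of −0.13. Of the ring's 6 subunits, Mcm7 alone had an unadjusted p under 0.05. Its log2 signals were 7.65, 7.94 and 7.90 in HP pools, against 8.47, 8.60 and 8.33 in control pools. The 3 HP pools were all below the lowest control pool. The ratio was −0.63 ± 0.13, or 1.55-fold lower in HP (limma adjusted p = 0.181). The other ring subunits were nearer to 0. Mcm6 had 12.41, 12.33 and 12.37 in HP pools, against 12.33, 12.07 and 12.34 in control pools. Its groups overlapped in normalised signal, although the ratio was above 0 on each array, averaging 0.12 ± 0.11. Mcm6 was at −0.06 in the log ratio of the scanner software, and under median centring at −0.996. Mcm3 averaged 0.02 ± 0.11, Mcm5 −0.03 ± 0.14, Mcm2 −0.22 ± 0.19 and Mcm4 0.28 ± 0.26, each with both signs among the arrays. Mcm5 was dim, with normalised log2 means of 6.57 in HP and 6.60 in control, above background in 2 pools of each group. In the log ratio of the scanner software Mcm5 was at −0.49. A difference between Mcm7 and the other subunits was not tested.

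Mcm8, a helicase that works with Mcm9 in recombination repair and is not part of the ring, had log2 signals of 7.18, 7.46 and 7.46 in HP pools, against 8.59, 8.11 and 8.01 in control pools. Each HP pool lay below all control pools, with log2 ratios of −1.40, −0.65 and −0.55 on the arrays. The ratio was −0.87 ± 0.22, 1.82-fold lower in HP (limma adjusted p = 0.196). Mcm10, which binds the helicase as it is activated and carries polymerase alpha, had 9.97, 9.74 and 9.77 in HP pools and 10.03, 10.22 and 10.90 in control pools. The HP pools were lower without overlap, but the ratio was only −0.06 on replicate 1, against −1.13 on replicate 3. Its mean was −0.55 ± 0.24 (adjusted p = 0.317).

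Helicase activators on the array numbered 5, of which 4 were tested, 3 with a mean below 0 and 1 above (median −0.22, 0 at an unadjusted p under 0.05). Gins1, a GINS subunit, had log2 signals of 8.80, 8.12 and 8.35 in HP pools and of 9.06, 8.77 and 8.54 in control pools. Each HP pool was below its partner while the groups overlapped through HP pool 1. The ratio was −0.37 ± 0.14 (adjusted p = 0.291). The other tested GINS subunits, Gins3 at −0.35 ± 0.21 and Gins4 at 0.33 ± 0.19, did not keep a sign over the arrays. Cdc7, the kinase that phosphorylates the loaded MCM ring, was at −0.13, −0.02 and −0.12, and was above background in 1 HP pool and 3 control pools. Its partner Dbf4 is described with the wider list.

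The polymerase and primase genes included the largest difference among the replication genes tested. Of 11 on the array 9 were tested, 5 with a mean above 0 and 4 below (median 0.02), with 2 lower at an unadjusted p under 0.05. Pold3, the accessory subunit of polymerase delta that also serves polymerase zeta and break-induced replication, had log2 signals of 8.95, 8.55 and 8.59 in HP pools, against 9.95, 10.05 and 10.14 in control pools. The groups were far apart, and the log2 ratios of replicates 1, 2 and 3 were −1.004, −1.50 and −1.55. The ratio was −1.35 ± 0.16, or 2.56-fold lower in HP (limma adjusted p = 0.177). The other tested delta subunits averaged near 0, Pold1, the catalytic subunit, at 0.02 and Pold4 at −0.02 ± 0.10, but both were dim. Their normalised log2 means were 6.46 and 6.50 in HP and 6.45 and 6.53 in control. The untested Pold2 averaged 6.28 over both channels, so ratios this close to background say little about a difference. For Pold1 the control pools were not well above background, and it passed the filter through HP alone. Its log2 ratios were 0.09, −0.07 and 0.03 on replicates 1, 2 and 3, so no direction is given.

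Prim2, the large subunit of primase, had log2 signals of 7.80, 7.94 and 7.81 in HP pools, against 7.98, 8.85 and 8.37 in control pools. The HP pools were tightly placed and all below the control pools, which spread more widely. Its ratio was −0.55 ± 0.18 (limma adjusted p = 0.251). Prim1, the catalytic primase subunit, averaged 0.07 ± 0.14 with both signs. Pola1, the catalytic subunit of polymerase alpha, was at −1.53, 0.80 and −0.67, the widest spread between arrays among the replication genes. Pole2, a subunit of polymerase epsilon, was at 0.05, 0.52 and 0.15. It was above background in 2 HP pools and in 0 control pools. It thus passed the filter through HP alone, which favours a value above 0. Its normalised log2 means were 6.46 in HP and 6.22 in control (limma adjusted p = 0.405), and the size of this difference was not determined.

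The clamp and loader genes had means on both sides of 0. Of 6 on the array 4 were tested, 2 above 0 and 2 below, and the 2 below had an unadjusted p under 0.05. Pcna, the sliding clamp, was printed in 10 spots per array, whose log2 ratios had an SD of 0.0489, 0.0201 and 0.0341 on replicates 1, 2 and 3. Its log2 signals were 9.78, 9.75 and 9.79 in HP pools, against 9.68, 9.46 and 9.54 in control pools. All HP pools were above the control pools, and the ratio was 0.21 ± 0.11 (limma adjusted p = 0.365), but −0.67 under median centring. Rfc4, a small subunit of the clamp loader, had 8.57, 7.995 and 7.89 in HP pools, against 9.23, 9.30 and 8.78 in control pools. No HP pool reached a control pool. The ratio of Rfc4 was −0.95 ± 0.17, 1.93-fold lower in HP (limma adjusted p = 0.177). Rfc2, another small subunit, had 6.75, 6.51 and 6.64 in HP pools, against 7.31, 7.47 and 6.77 in control pools. Its groups did not overlap, although the ratio on replicate 3 was only −0.13, and the mean was −0.55 ± 0.20 (limma adjusted p = 0.269). Rfc5 averaged 0.42 ± 0.25 with both signs among the arrays.

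Both tested genes of the single-strand binding protein RPA had means below 0. Of them Rpa1 passed the brightness filter through the control alone, which favours a value below 0. Rpa3, its smallest subunit, had log2 signals of 7.21, 7.64 and 7.52 in HP pools, against 7.71, 7.81 and 7.78 in control pools. The groups did not overlap, and the ratio was −0.31 ± 0.12 (adjusted p = 0.295). Rpa1, the large subunit, was at −0.29, −0.25 and −0.23 on replicates 1, 2 and 3, and was well above background in 0 HP pools and in all 3 control pools. Its normalised log2 means were 6.39 in HP and 6.65 in control, with a ratio of −0.26 ± 0.10 (limma adjusted p = 0.297). With HP not above background, the size of this difference was not determined.

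All 4 genes of nucleotide supply had means below 0, with a median of −0.25 and 0 at an unadjusted p under 0.05. Rrm2, the regulatory subunit of ribonucleotide reductase, had log2 signals of 9.49, 8.99 and 9.02 in HP pools, against 9.72, 9.21 and 9.21 in control pools. The gap was nearly the same on each array (−0.23, −0.22 and −0.19), while the pools themselves overlapped through HP pool 1. The ratio was −0.21 ± 0.10 (adjusted p = 0.34). Rrm1 averaged −0.19 ± 0.13. Tyms, which makes thymidylate, was at −0.28 ± 0.21, and both had 1 array above 0. Tk1, the salvage thymidine kinase, was at −0.04, −0.12 and −1.29, so that its mean of −0.48 ± 0.30 was set mostly by replicate 3.

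Top1, the topoisomerase that relieves supercoiling ahead of forks and of transcribing polymerases, had log2 signals of 9.30, 8.99 and 9.09 in HP pools, against 9.81, 10.14 and 9.82 in control pools. All HP pools lay below the lowest control pool, with log2 ratios of −0.51, −1.15 and −0.73 on the arrays. The ratio was −0.79 ± 0.17, 1.73-fold lower in HP (limma adjusted p = 0.181). Top2a, the topoisomerase that untangles daughter chromosomes, was not bright enough to be tested. Poldip2, which passed the brightness filter through HP alone and is not a subunit of these complexes, was at 0.08, 0.17 and 0.04. The other untested replication genes were Cdc45, Fen1, Mcm3ap, Pola2, Pold2, Poldip3, Rfc3 and Rpa2.

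**Figure D2:**
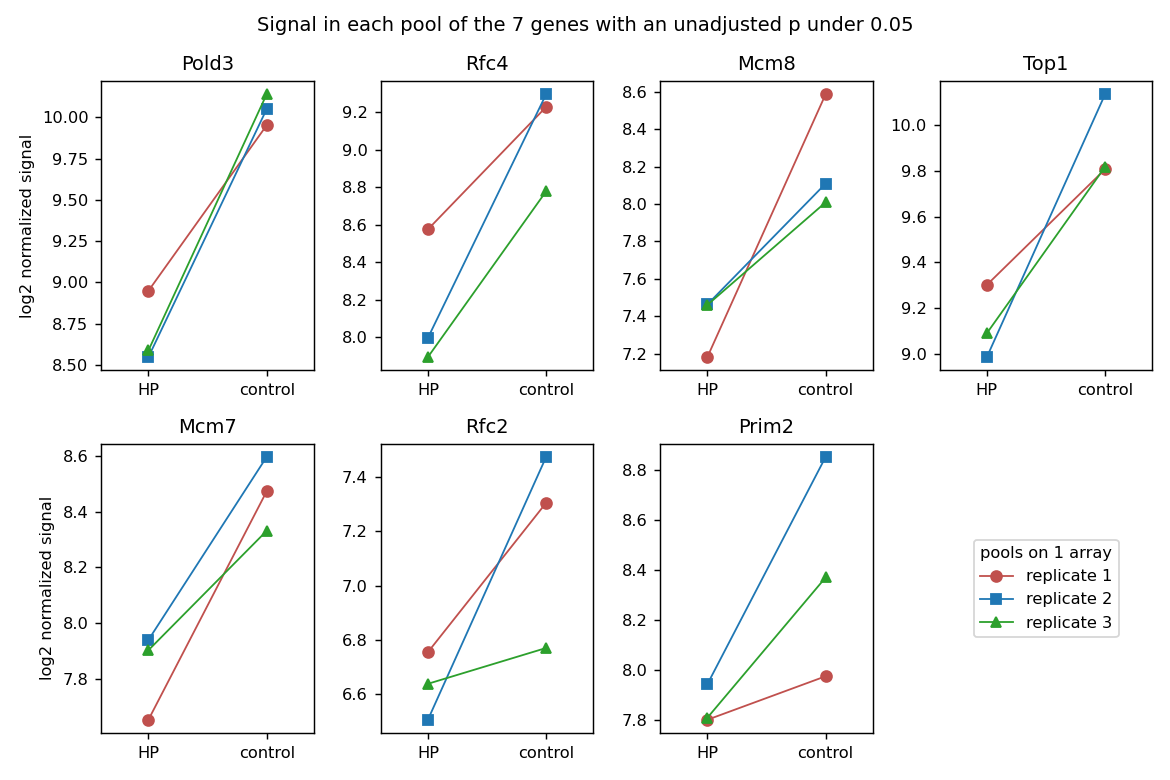
Log2 normalised signal (vertical axis, own scale in each panel) of the 7 replication genes with an unadjusted p under 0.05, in HP pools (left) and control pools (right); a line joins the pools on 1 array. All 3 lines go up towards the control in each panel, most steeply for Pold3 on replicate 3 (log2 ratio −1.55) and least for Rfc2 on replicate 3 (−0.13).

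The probes of the genes with an unadjusted p under 0.05 are shown because each value above rests on 1 oligonucleotide of 60 bases. The first 30 bases of each are given 5′ to 3′, as in the array's own table. For the Pold3 pair that covers nearly the same stretch, capitals mark the bases at which the 2 probes differ. Positions are those of the array design on mm7. Whether a probe lies in coding sequence or in a UTR was not analysed here.
Pold3 A_52_P271244 (chr7:96129680-96129739, minus strand): cccaaAGGgaagtcacCtggaaacggggca
Pold3 A_51_P490397 (chr7:96129681-96129740, minus strand): acccaaGAAgaagtcacGtggaaacggggc
Pold3 A_52_P78383 (chr7:96128410-96128469, minus strand): ttttgtcattgcctctagtgatttttgtaa
Rfc4 A_51_P378450 (chr16:22772565-22772624, minus strand): ctctccccttttgtatgaaaccagttacta
Mcm7 A_51_P165704 (chr5:137110218-137110277, minus strand): aggttaatacttctcggacacggatcacct
Top1 A_51_P276404 (chr2:160463244-160463304, plus strand): ctttgtaccctttaagagatccatcttttc
Mcm8 A_51_P208355 (chr2:132584355-132584414, plus strand): tcactgaatgaccaaggttatctcttgaag
Prim2 A_51_P338998 (chr1:33676948-33677007, minus strand): ggaaaggaagcattcctattgaaactgtta
Rfc2 A_52_P981680 (chrUn_random:7281775-7281834, plus strand): gacatggggcatgctgggaaagttctgact
Rfc2 A_51_P254912 (chrUn_random:7281452-7281511, plus strand): atggctccagtggccagctgacttgagacg

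The 3 Pold3 probes were all below 0 on average, by differing amounts. The upper 2 align over 59 bases with 4 mismatches. A_52_P271244, the brighter, averaged −1.35. A_51_P490397 was at −0.56, −1.25 and −0.99, with a mean of −0.93. The ratios of this pair differed by 0.44, 0.25 and 0.56 on replicates 1, 2 and 3. The third probe, whose start is 1270 bases away, was at 0.38, −0.99 and −0.49, with a mean of −0.37. It was thus above 0 on replicate 1, where the others were below. The size given for Pold3 therefore depends on which probe stands for the gene.

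The Rfc2 probes went opposite ways and were almost equally bright. A_52_P981680 stood for the gene by a mean log2 intensity after loess of 6.936, against 6.932 for A_51_P254912. After quantile normalisation of the intensities between arrays the order was turned, at 6.908 against 6.945. With the choice made on those intensities, an alternative added after seeing the data, Rfc2 was at 0.28, and 6 replication genes had an unadjusted p under 0.05 (18.4% of all genes). Against −0.55 for A_52_P981680, A_51_P254912 was at 0.36, 0.49 and −0.01, with a mean of 0.28, although their starts lie only 323 bases apart. A_51_P254912 also stood for the gene when probes had to be above background in both channels on all arrays. Opposite signs were also found for the following Orc4 probes, and a wide gap for those of Cdc6, so their sequences are shown for comparison.
Orc4 A_51_P381527 (chr2:48912534-48912593, minus strand): acgcatggacacagtttcattaatttaaat
Orc4 A_52_P261020 (chr2:48918870-48918929, minus strand): ataattttctaccatggtatctttactgat
Cdc6 A_52_P371108 (chr11:99030298-99030357, plus strand): ccccagaatcttcattttagtaaggtcgtt
Cdc6 A_52_P219473 (chr11:99032894-99032953, plus strand): ttaagaaccagattaagtttccatagtgtc

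The brighter Orc4 probe was at 0.24, 0.56 and −0.00, with a mean of 0.27 ± 0.15, and the other at −0.29, −1.05 and −0.64, with a mean of −0.66 and a HP signal above background on 1 array. Averaged over both, Orc4 was at −0.20. For Cdc6 the brighter probe averaged −0.91, and the other, whose start is 2596 bases away, averaged −0.00, at −0.26, 0.20 and 0.05 on the arrays. The brighter Pole3 probe, for a histone-fold subunit of polymerase epsilon, was at −0.27, 0.50 and 0.71, with a mean of 0.31 ± 0.23. The other Pole3 probe averaged −0.25 and was above background in 0 HP pools and 2 control pools. It passed the brightness filter through the control alone, as did the Orc4 probe below 0, which favours a value below 0. Tyms had probes at −0.28 and −0.34 that share most of their sequence, 40 aligned bases with 1 mismatch. The 3 Pole4 probes averaged 0.07, 0.34 and 0.59. In all, probes of opposite sign were seen for 3 of the 7 replication genes that had more than 1 tested probe (42.9%), close to the 40.7% (468 of 1149) over the whole array.

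**Figure D3:**
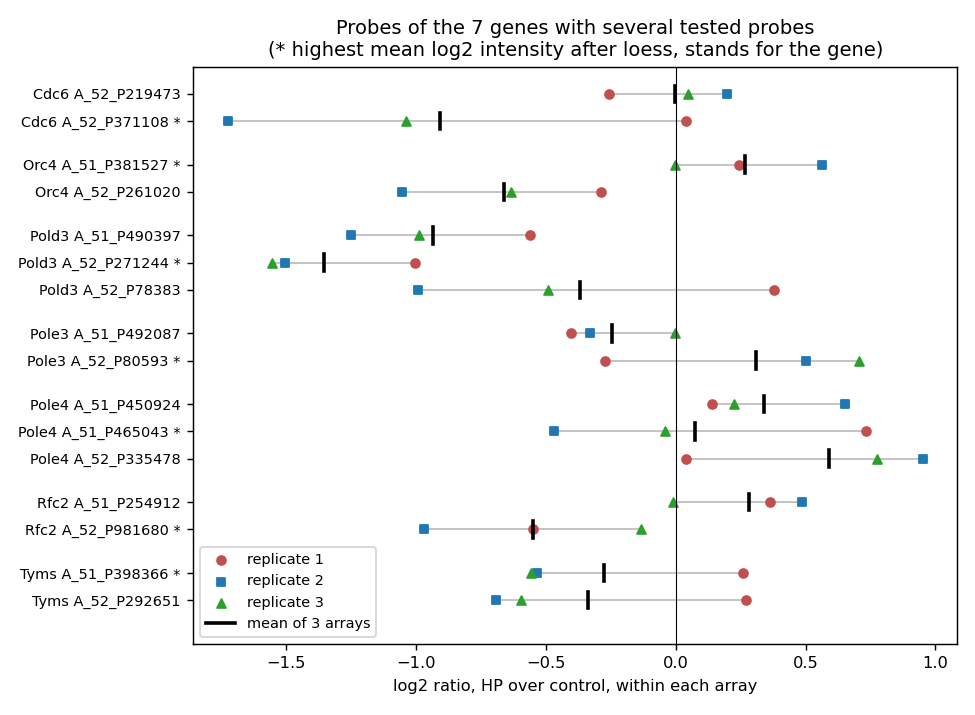
Log2 ratio of HP over control (horizontal axis) of every tested probe of the 7 replication genes with several tested probes; symbols are arrays, black bars their mean and an asterisk the probe of highest mean log2 intensity after loess, which stands for the gene (by 6.936 against 6.932 for Rfc2). The Orc4, Pole3 and Rfc2 probes have means on opposite sides of 0, and the Pold3 probes range from −1.35 to −0.37. For Orc4 and Pole3 the probe below 0 passed the brightness filter through the control alone.

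Promoters of replication genes are known targets of E2F transcription factors, so the promoter windows of RefSeq (GRCm38.p6, 250 bases before to 50 bases after the start) were searched for TTTCCCGC, TTTGGCGC, TTTCGCGC and TTTGCCGC on both strands. Matches of different motifs can overlap. A match was found for 704 of 27025 genes (2.6%) and for 16 of the 44 replication genes that had a window (36.4%). Among tested replication genes it was found for 5 of 12 with a mean above 0 in HP over control (41.7%) and for 8 of 21 below (38.1%). The share was thus similar on either side. Of the 5 genes with an unadjusted p under 0.05 that had a window, Mcm7, Mcm8 and Pold3 held a match, and Rfc4 and Top1 held none of these letters in it. Gins1, Gins4, Gmnn, Mcm4, Poldip3, Prim2 and Rfc2 were not searched.

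The stretches of 60 bases upstream of the start are shown for Mcm7, lower in HP on each array, and for Mcm5, Mcm6 and Cdc6, whose values lay near 0 or varied between arrays. They are written 5′ to 3′ on the strand of the gene, with the matches in capitals and positions on GRCm38.p6.
Mcm7 (chr5:138172015-138172074, minus strand): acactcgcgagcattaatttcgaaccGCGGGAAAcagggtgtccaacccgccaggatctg
Mcm6 (chr1:128359782-128359841, minus strand): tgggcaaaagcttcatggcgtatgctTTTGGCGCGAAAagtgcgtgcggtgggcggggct
Mcm5 (chr8:75109330-75109389, plus strand): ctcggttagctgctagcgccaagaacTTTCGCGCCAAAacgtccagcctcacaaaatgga
Cdc6 (chr11:98907987-98908046, plus strand): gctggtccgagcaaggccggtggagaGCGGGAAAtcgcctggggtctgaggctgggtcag

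In Mcm5 and Mcm6 a match on each strand overlaps to form the longer capital stretch. Both genes had mean ratios near 0 (−0.03 and 0.12), but Mcm5 was dim and was at −0.49 in the scanner's log ratio. The letters that Mcm7 and Cdc6 share on the minus strand of the window are also found upstream of Pole4 and Gins3. These 4 genes averaged −0.63 (Mcm7), −0.91 (Cdc6), 0.07 (Pole4) and −0.35 (Gins3), and only Mcm7 kept its sign on every array.

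A wider list of 48 genes that work beside this machinery (fork protection, flap and RNA primer removal, nucleotide pools, chromatin assembly and cell-cycle regulators) was read from the same fit. Of these 33 were tested, 11 with a mean above 0 and 22 below, with a median of −0.12. An unadjusted p under 0.05 was reached by 9, of which 5 were higher and 4 lower in HP, and 0 passed adjustment in limma. That is 27.3% of the list, beside 18.4% of all genes, and the list was drawn up with earlier results of these data known. The list thus held genes on both sides at this p. A difference between it and the replication genes was not tested.

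Higher in HP were Donson, a fork protection factor that also takes part in helicase assembly, at 0.70, 1.55 and 0.82 (mean 1.03 ± 0.21), and Dbf4, the activating partner of Cdc7, at 0.71, 0.66 and 0.40 (mean 0.59 ± 0.12). Uhrf1, which brings the maintenance DNA methyltransferase to replicated DNA, was at 0.59, 1.62 and 1.74 (mean 1.32 ± 0.28). Each of these kept its sign on every array at an adjusted p of 0.181. Lower in HP were Rnaseh2b, a subunit of the RNase that removes ribonucleotides from DNA, at −0.61, −0.84 and −0.67 (mean −0.71 ± 0.11, adjusted p = 0.177), and the exonuclease Exo1, at −0.45, −1.71 and −1.01 (mean −1.06 ± 0.28, adjusted p = 0.204). Chtf18, a subunit of an alternative clamp loader, was at −0.24, −1.08 and −0.51 (mean −0.61 ± 0.20, adjusted p = 0.253). Cdc7, the partner of Dbf4, averaged −0.09 ± 0.11 with an adjusted p of 0.638 in limma. It passed the brightness filter through the control alone, so no contrast with Dbf4 is drawn.

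How each array was centred moved the median of the replication genes more than any other choice tried. With each array centred on its median instead of loess, the median of all genes moved to −0.39 and that of the replication genes to −0.85, so that the replication genes differed from all genes by −0.47, against −0.20 after loess. The count at an unadjusted p under 0.05 then was 25, all lower in HP, beside 35.9% of all genes. With the scanner's own log ratio the replication genes had a median of −0.29 and all genes 0.05. With no filter on brightness, over all 51 genes, the median was −0.03. The median over the replication genes was below that over all genes under every one of the 18 other settings tried. Not all of these could have shown otherwise. Trended robust moderation and separate channels left the ratios, and so both medians (−0.21 and −0.01), as reported. The scanner's log ratio and the series table gave equal medians (−0.29 and 0.05), so they are not separate checks. Pold3, Rfc4, Top1 and Mcm8 had an unadjusted p under 0.05 under each of the 18 settings. Mcm7 lost it with the scanner's log ratio and the series table, and Prim2 and Rfc2 lost it under several. The median base composition of the probes was 41.7% G and C for the replication genes and 41.7% for all genes.

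**Figure D4:**
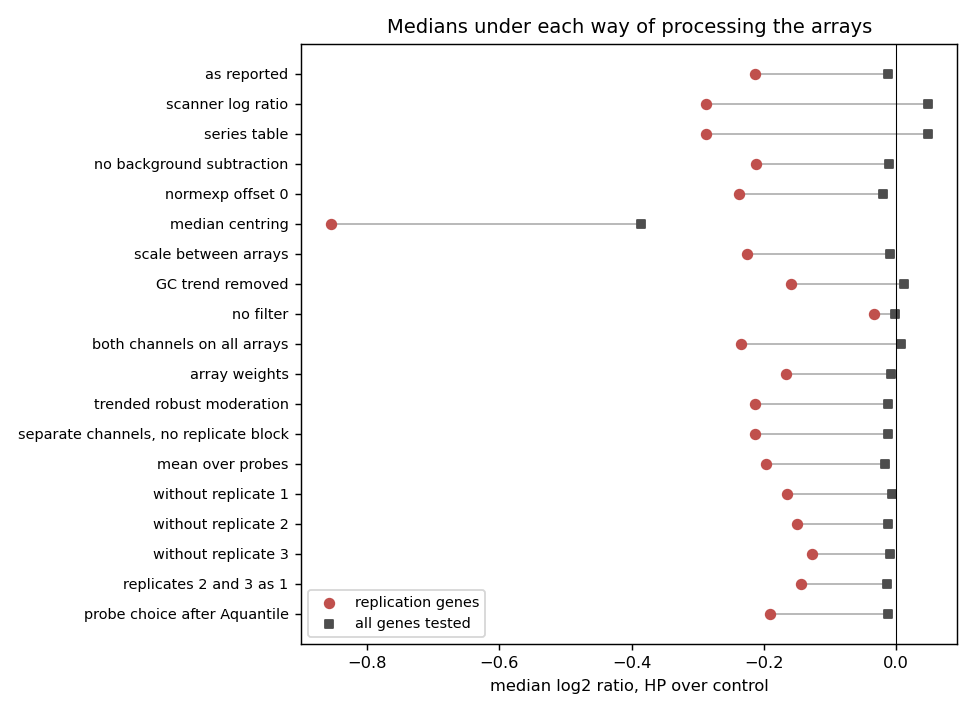
Median log2 ratio of HP over control (horizontal axis) of the replication genes (red circles) and of all genes tested (grey squares) under each way of processing the arrays. The red circle lies left of the grey square in every line, with a difference of −0.20 as reported, of −0.47 under median centring and of −0.03 with no filter. The lines of trended robust moderation and separate channels could not differ from the reported one.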

How the data were processed

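Per the file headers, 3 scans of 2-colour Agilent arrays (1 slide, 1 scan, mm7 design) were read by Agilent Feature Extraction 9.5.1.1, which the submitters' processing notes also name. Mean spot signals and local background medians were deposited as intensity without subtraction. Processed signals were deposited as intensity too, background-subtracted and dye-normalised by that software. The log10 ratio it gives is Cy5 (HP) over Cy3 (control), and the deposited series table repeats it, with a largest difference of 5e-10 and a median of 0 on each array.

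Here the mean signals were corrected with normexp (offset 50) and normalised by loess within arrays (limma 3.58.1, R 4.3.3, statmod 1.5.0), with control spots at weight 0. Spots marked as outliers were left out (208, 172 and 325 spots), and spots of a probe were averaged. A probe was tested when 1 channel was well above background on 2 or more of the 3 arrays, and the tested probe of highest mean log2 intensity after loess, before any scaling between arrays, stood for a gene. Symbols were matched to RefSeq by accession (22951 probes), symbol (6659) or synonym (3109), and kept for 8455. An intercept was fitted to the log2 ratios with empirical Bayes moderation (2 residual and 2.06 prior degrees of freedom) and Benjamini-Hochberg adjustment over all genes, at 0.05. Pool signals are log2 values after loess and Aquantile. No member spot was saturated, and the number of arrays limits the precision. The fit alone was tested on simulated log2 ratios with known changes and independent arrays. Normalisation, the brightness filter and the choice of probe were not tested in this way.

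The name pattern reads no measured value, but it and the lists were chosen with earlier results of these data known. Members that kept 1 sign, had an unadjusted p under 0.05 or had probes of opposite sign are named with values by array, and the wider list by its 3 smallest p in each direction. The alternatives tried were the series table or the scanner's log ratio as input, an offset of 0 or no subtraction of background, median centring, scaling between arrays, correction for the probes' GC content, array weights, no filter, a filter that asked for both channels on every array, trended robust moderation, separate channels, the mean over probes, leaving out each replicate, replicates 2 and 3 as 1, and other thresholds. Choosing probes after quantile normalisation was added after seeing the data. With 1 slide no slide block could be fitted.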

Additional observations from a re-analysis of the deposited data

How the results depend on the processing

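With limma, 0 genes on the array passed adjustment under the 18 other settings except median centring, where 1094 did, 4 higher and 1090 lower in HP, among them 12 replication genes. Replication genes with an unadjusted p under 0.05 numbered 7 as reported, which is 17.9% beside 18.4% of all genes. They numbered 12 of 51 with no filter (1 higher, 11 lower; 23.5% beside 7.16%), 25 under median centring (64.1% beside 35.9%), and 11, 6 and 8 without replicate 1, 2 and 3 (28.2%, 15.4% and 20.5% beside 24.7%, 9.65% and 10.4%). At a p under 0.01 there were 4 (10.3% beside 5.36%). The near-equal shares of the reported setting thus did not hold under each of these. The median of the replication genes, −0.21 as reported, was −0.29 with the scanner's log ratio and with the series table, −0.85 under median centring, −0.034 with no filter, −0.14 with replicates 2 and 3 as 1, and −0.17 to −0.13 when 1 replicate was left out. Genes of 1 sign on all arrays numbered 21 as reported, 32 under median centring (1 higher, 31 lower; 82.1% beside 62.5% of all genes) and 26 to 29 when 1 replicate was left out and only 2 arrays had to match (66.7% to 74.4% beside 60.6% to 73.6%), and 4 had a ratio of at least 0.5 in size on every array, all lower in HP (10.3% beside 4.45%). The pairing of pools within an array is the array itself. With separate channels and no replicate block 8 replication genes had an unadjusted p under 0.05, 6 of them among the 7, with a lowest adjusted p of 0.0553.

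Of the values of single genes under other settings 657 kept their direction and side of the adjusted p threshold of 0.05, and 28 had the opposite sign. A further 10 kept their direction and passed that threshold, all under median centring. As no other setting had a gene past it, keeping its side says little there, and calls at an unadjusted p did change. Trended robust moderation and separate channels left each gene's ratio as reported, so its direction could not change there. The 12 that passed adjustment under median centring were all lower in HP, 10 of them with the sign reported and Mcm3 and Mcm6 with the opposite one. Of opposite sign under median centring were Gins4 at −0.36, Gmnn −0.70, Mcm3 −0.95, Mcm4 −0.64, Mcm6 −0.996, Orc4 −0.77, Orc6 −0.63, Pcna −0.67, Pold1 −0.064, Pole3 −0.51, Pole4 −0.78, Prim1 −0.52 and Rfc5 −0.21. Mcm6 was at −0.063 with the scanner's log ratio and with the series table, Orc4 at −0.20 as a mean over probes, Pole4 at −0.0099 with array weights, Rfc2 at 0.28 with the filter on both channels of all arrays and with probes chosen after quantile normalisation and Mcm5 at 0.032 with replicates 2 and 3 as 1. When 1 replicate was left out, Mcm3 ran between −0.030 and 0.057 as the lowest and highest value, Mcm4 between −0.054 and 0.52, Mcm5 between −0.17 and 0.046, Pola1 between −1.10 and 0.069, Pold1 between −0.020 and 0.062, Pole4 between −0.26 and 0.35 and Prim1 between −0.060 and 0.19. The cause was not tested. Rpa1, Pole2 and Pold1 were not well above background in any pool of 1 group, so the size of their differences was not determined. The same holds for the dimmer Pole3 probe, which did not stand for the gene.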
